A study of Ginkgo biloba with 6 samples.

Results

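The 93 loci described here are the highly expressed loci of Ginkgo biloba leaves whose transcripts were lower in every leaf library grown under ultraviolet-B (UV-B) light than in every control library. They were chosen from read counts by 2 conditions. The mean over the 6 libraries was at least 100 CPM, that is, counts scaled to a common library total (counts per 1000000) after TMM scaling, which corrects library totals for composition. The lowest of the 3 control values was at least 1.5 times the highest of the 3 UV-B values. The table listed 43190 loci, 23641 passed the filter on low counts, and 1714 had a mean of at least 100 CPM, so the 93 loci made up 5.43% of the last group. Without the demand for a gap of 1.5 times, all 3 control values lay above all 3 UV-B values in 29.2% of the 1714. Because the direction, the gap and the abundance were the grounds for the choice, these values are given as a description and no test of them is made.

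A leaf typically builds a large part of its messenger RNA pool from few genes. In well-studied flowering plants, nuclear genes for light-harvesting proteins and for enzymes of carbon fixation are among them. UV-B is the ultraviolet band of sunlight that plants sense, in Arabidopsis through the photoreceptor UVR8, and long exposure is known in many plants to change both photosynthetic and protective transcripts. The file pairs no identifier with a gene name or function, so it cannot be said from it whether any of the 93 loci belongs to such a group. The leaf label could likewise not be checked against marker genes, and no sequence is shown. For the same reason 2 loci are named by identifier, and the others are called by their rank of mean CPM among the 93, from 1 (the highest) to 93.

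The libraries came from seedling leaves of Ginkgo biloba, a gymnosperm tree. The control group (3 libraries) stood for 14 days in white light without UV-B. The UV-B group (3 libraries) received 21.42 kJ/m2 of UV-B a day for 14 days from mercury-vapor lamps. No genotype, strain, plant age or other agent is given for either group, and nothing in the labels ties the replicates to separate plants, so the spread between libraries may in part be technical. Totals ranged from 37528794 to 47559213 counts. The count tables of each pair of replicates differed by 36.9 to 83.6 times their degrees of freedom in a chi-square comparison, so no library was a copy of another. In leaf samples of this kind, fewer cells of a type and less RNA per cell cannot be told apart.

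The 93 loci held a large part of the control leaf's counts and a much smaller part of the UV-B leaf's. They took 11.6% of all counts in control replicate 1, 13.1% in control replicate 2 and 13.0% in control replicate 3. In UV-B leaves they took 4.91%, 4.88% and 5.59% in replicates 1, 2 and 3. Every control share lay above every UV-B share, which the choice of loci fixes. The means were 12.6% ± 0.87 (SD, n = 3) and 5.13% ± 0.40 (SD, n = 3), a difference of 7.42 percentage points. The 95% Wilson interval of each share was within 0.0108 points of it, which covers counting error only. These shares are of total counts, so TMM scaling enters them only through the choice of the loci. The 1621 other loci of at least 100 CPM together took 52.4% ± 0.94 of the counts in control leaves and 55.5% ± 1.47 in leaves under UV-B (SD, n = 3 each).

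**Figure D1:**
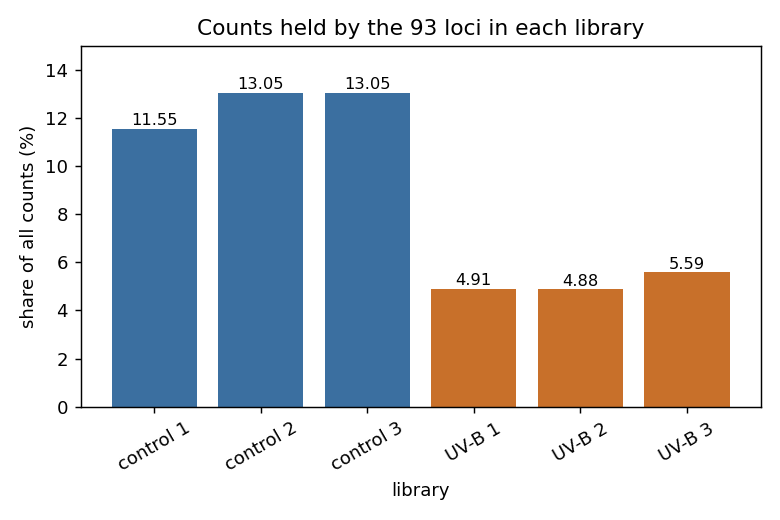
Share of all counts (percent) held by the 93 loci in each of the 6 libraries, control in blue and UV-B in orange. The 3 control bars stand between 11.6% and 13.1% and the 3 UV-B bars between 4.88% and 5.59%.

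The opposite pattern was found in fewer highly expressed loci. The same 2 conditions with the groups exchanged were met by 12 loci, or 0.70% of the 1714. Both numbers moved with the scaling, to 78 lower and 16 higher loci with upper-quartile factors and to 56 lower and 21 higher with library size alone. These 12 held 0.172% ± 0.011 of the counts of control leaves and 0.540% ± 0.034 of those of UV-B leaves (SD, n = 3 each). Only 1 of the 12 had a mean of at least 1000 CPM, against 28 of the 93 lower loci.

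The loci were more frequent among transcripts of at least 500 CPM than below that level. They were 36 of 1008 loci between 100 and 200 CPM (3.57%) and 16 of 514 between 200 and 500 CPM (3.11%). Between 500 and 1000 CPM they were 13 of 109 (11.9%), between 1000 and 2000 CPM 13 of 47 (27.7%), and from 2000 CPM upward 15 of 36 (41.7%). The size of the fall did not follow the same order, though the mean that sets the class is itself lowered by a fall under UV-B. The median ratio of control to UV-B mean was 2.51 in the lowest of these classes, 2.27 in the next, 4.85 between 500 and 1000 CPM, 2.72 between 1000 and 2000 CPM and 2.67 above. The 28 loci of at least 1000 CPM fell from 9.78% to 4.05% of counts and made up 77.3% of the whole drop in share. The other 65 went from 2.77% to 1.08%.

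**Figure D2:**
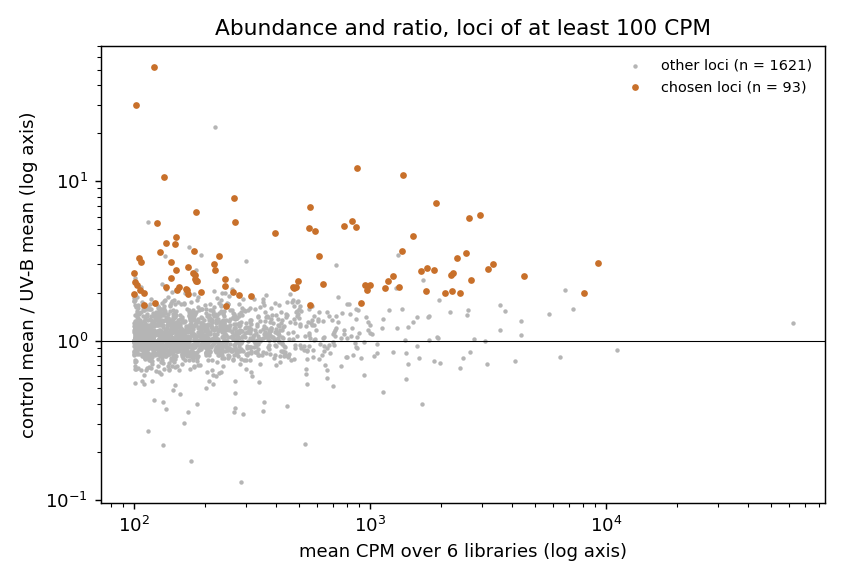
Ratio of control to UV-B mean against mean CPM over 6 libraries, both on log axes, for the 1714 loci of at least 100 CPM. The 93 chosen loci (orange) reach from 100 CPM to 9281 CPM and have ratios from 1.65 to 52.3, while most other loci (grey) lie around a ratio of 1.

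Across the 93 loci the ratio of the means ran from 1.65 to 52.3, with a median of 2.57 and quartiles of 2.13 and 3.66. It was at least 2 in 80 loci, at least 3 in 36, at least 4 in 23, at least 5 in 17 and at least 10 in 5. Most loci therefore kept a sizeable level in UV-B leaves. The UV-B mean was still at least 100 CPM in 63 of them and at least 1000 CPM in 14, against 35 with a control mean of at least 1000 CPM. It was below 50 CPM in 6.

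Gb_23731 was the most abundant of the 93. Its level was 12379, 14933 and 14665 CPM in control replicates 1, 2 and 3 and 3887, 4605 and 5217 CPM in UV-B replicates 1, 2 and 3. All 3 control values were at least 2.37 times the highest UV-B value. The means were 13992 ± 1404 CPM and 4570 ± 666 CPM (SD, n = 3 each), and the fitted log2 fold change was -1.61 ± 0.19 (SE). It was the locus with the second highest count in each control library and ranked 8, 7 and 8 in the UV-B libraries. It alone held 10.3% ± 0.15 of the counts of the 93 loci in control leaves and 9.60% ± 0.44 under UV-B (SD, n = 3 each). The other 92 loci went from 11.3% ± 0.76 to 4.64% ± 0.36 of all counts (SD, n = 3 each).

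The loci next in rank showed smaller ratios than Gb_23731. The locus of rank 2 stood at 10165, 10402 and 11574 CPM in control and 4711, 5937 and 5536 CPM in UV-B replicates 1, 2 and 3, a log2 fold change of -0.99 ± 0.17 (SE). Its place among all loci by count was 4, 4 and 3 under control light and 5, 5 and 7 under UV-B. That of rank 3 went from 6519, 7080 and 5773 CPM to 2024, 2391 and 3175 CPM, a log2 fold change of -1.35 ± 0.21 (SE). In both loci the groups lay well apart, and UV-B replicate 1 was the lowest of the 6 libraries.

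Other abundant loci had much larger ratios. The locus of rank 6 had 3419, 5225 and 6524 CPM in control and 728, 726 and 1008 CPM in UV-B replicates 1, 2 and 3, giving a log2 fold change of -2.62 ± 0.28 (SE). That of rank 8 had 3234, 5364 and 4910 CPM in control against 657, 751 and 883 CPM under UV-B, with a log2 fold change of -2.56 ± 0.24 (SE). In both, control replicate 1 was the lowest control library by a wide margin. That of rank 16 differed in this respect, with 3515, 3638 and 2930 CPM in control against 389, 321 and 677 CPM in UV-B leaves, and a log2 fold change of -2.86 ± 0.30 (SE). Its place among all loci went from 18, 22 and 29 to 219, 345 and 125.

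**Figure D3:**
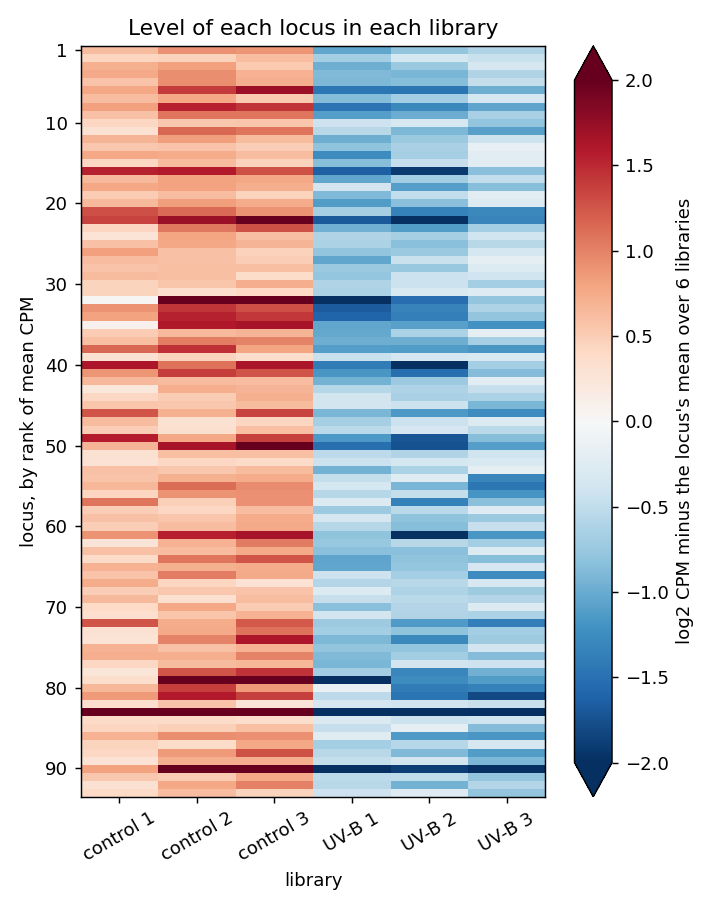
Level of each of the 93 loci in each library, as log2 CPM minus the locus's mean over the 6 libraries (red higher, blue lower, colours limited to 2 in either direction). Rows run from rank 1 at the top to rank 93, and the darkest rows, such as 22, 83 and 90, are the steepest falls.

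The place of each locus among all transcripts of its own library can be read without scaling. The 93 loci were chosen on scaled values as lower in UV-B, so lower places there largely follow from the choice. Among the 100 loci with the most counts, 34, 38 and 38 were members of the group in control replicates 1, 2 and 3, and 20, 17 and 22 in UV-B replicates 1, 2 and 3. Among the 20 highest, the numbers were 7, 10 and 9 in control and 2, 2 and 3 in UV-B leaves. The median place of the 93 loci was 236, 221 and 140 in control replicates 1, 2 and 3 and 753, 915 and 691 in UV-B replicates 1, 2 and 3. For the other 1621 loci of at least 100 CPM it stayed between 861 and 909 in all 6 libraries. Each of the 93 loci stood lower in place in all 3 UV-B libraries than in any control library.

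The steepest falls were not among the 15 most abundant loci. The rank is of the mean over all 6 libraries, which a fall under UV-B itself lowers, so nothing is read from this. Gb_07438, of rank 83, had the widest gap, with its lowest control value 25.4 times its highest UV-B value. It had 195, 237 and 289 CPM in control replicates 1, 2 and 3 and 7.68, 2.16 and 3.97 CPM in UV-B replicates 1, 2 and 3. These levels rested on 8555, 7995 and 11954 reads in control and on 420, 93 and 162 reads in UV-B leaves, so even the lowest value rested on 93 reads. The means of 240.4 ± 46.7 CPM and 4.60 ± 2.81 CPM (SD, n = 3 each) differed 52.3-fold, and the log2 fold change was -5.70 ± 0.49 (SE). It was -6.29 without UV-B replicate 1, the highest of the UV-B libraries, and -5.35 without UV-B replicate 2, the lowest. All 3 UV-B values lay far below the 100 CPM that the mean had to reach.

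At rank 90, the levels were 54.4, 228 and 313 CPM in control and 3.62, 8.42 and 7.71 CPM in UV-B replicates 1, 2 and 3, a 30.1-fold difference of the means. At rank 32, they were 382, 2969 and 1530 CPM in control and 56.6, 131 and 218 CPM in UV-B leaves, a 12.1-fold difference. In both, the control libraries differed from each other several-fold, with control replicate 1 lowest. The locus of rank 22 was steadier, with 1912, 2475 and 3186 CPM in control and 232, 164 and 300 CPM in UV-B leaves, a 10.9-fold difference. At rank 79, the levels were 83.9, 313 and 341 CPM in control against 11.0, 27.7 and 30.5 CPM in UV-B leaves, a 10.7-fold difference. In ranks 90 and 79, only control replicates 2 and 3 lay above 100 CPM, the limit set for the mean. The log2 fold changes of the loci of rank 90, 32, 22 and 79 ranged from -4.92 ± 0.70 (SE) for rank 90 to -3.42 ± 0.62 (SE) for rank 79.

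**Figure D4:**
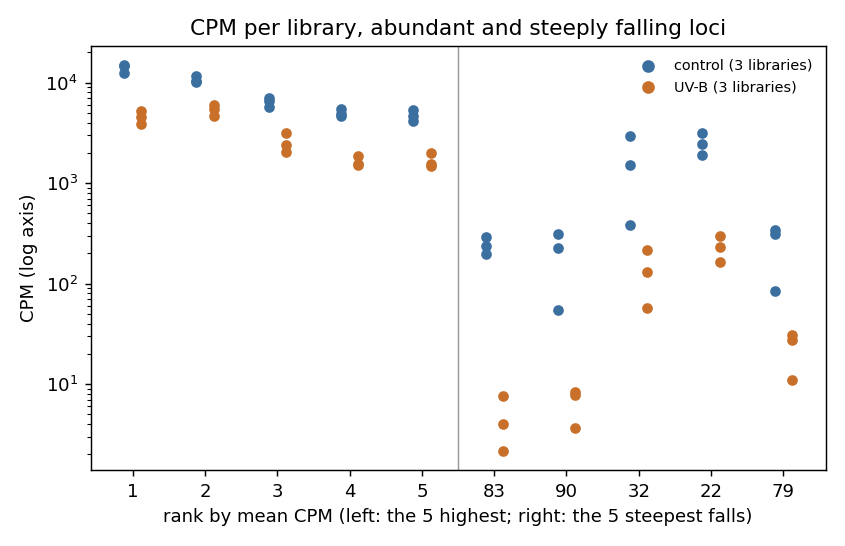
CPM on a log axis in each control (blue) and UV-B (orange) library for the 5 most abundant of the 93 loci and for the 5 with the largest ratio of control to UV-B mean. On the right, ranks 90, 32 and 79 have 1 control point, that of control replicate 1, far below the other control points.

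At the other end, 13 loci had a ratio below 2. Rank 84 had 140, 139 and 137 CPM in control and 87.4, 79.4 and 80.7 CPM in UV-B replicates 1, 2 and 3, a log2 fold change of -0.75 ± 0.09 (SE). Rank 39 had 669, 738 and 691 CPM in control and 397, 428 and 440 CPM under UV-B, with a log2 fold change of -0.73 ± 0.11 (SE). In both loci the spread within each group was much smaller than the distance between the groups. Others of the 13 were spread more widely, such as rank 15 with 1088, 1421 and 1693 CPM in UV-B replicates 1, 2 and 3.

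The limits of the choice cut through a continuous range. The 3 loci just inside the gap had lowest control values of 1.505, 1.507 and 1.508 times the highest UV-B value, and the 3 just outside had 1.496, 1.489 and 1.478 times. One of those outside had a control mean of 2529 CPM and a UV-B mean of 1418 CPM, so it was as abundant as many members. At the limit of abundance, the 3 loci just inside had means of 100.1, 100.8 and 100.9 CPM and the 3 just outside 99.6, 98.9 and 98.8 CPM. Of the 254 loci of at least 100 CPM whose control mean was at least 1.5 times the UV-B mean, 161 were not members, and in 20 of these 161 the groups overlapped. Only 7 loci outside the group had a ratio of at least 3. The highest of them had 15.8, 1126 and 127 CPM in control and 0.475, 7.08 and 50.1 CPM in UV-B leaves, so its control and UV-B values overlapped.

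The 93 loci varied more between replicates in UV-B leaves than other loci of at least 100 CPM did. Their median coefficient of variation (SD as a percentage of the mean) was 11.6% in control and 19.0% in UV-B leaves, against 9.71% and 9.88% in the 1621 others. The 1621 were not matched to the 93 for abundance. Of those with at least 1000 CPM, many had a UV-B value above 19.0% and many a lower one. The higher median is therefore not shown to be particular to the 93 loci. The coefficient was higher in UV-B than in control in 61 of the 93 loci (65.6%), and in 51.6% of the others. Since the UV-B means were lower, the SD itself was larger in control, at a median of 2.05 times the UV-B SD. Counting error of independent reads would give a median of 1.11% in the UV-B libraries, a small part of this spread. The lowest count of any of the 93 loci in any library was 93 reads, in the locus of rank 83.

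Single libraries stood out within their group. Control replicate 1 was the lowest control library in 58 of the 93 loci (62.4%), and in 38.1% of the other loci of at least 100 CPM. UV-B replicate 3 was the highest UV-B library in 51 of them (54.8%), and in 37.8% of the others. UV-B replicate 1 was the lowest UV-B library in 39 of the 93 loci (41.9%), but in 61.5% of the others. In terms of log2 CPM minus the group's mean, the median of the 93 loci was -0.09 in control replicate 1, 0.06 in control replicate 2 and 0.09 in control replicate 3. In UV-B replicates 1, 2 and 3 it was -0.06, -0.06 and 0.15. The other loci had medians of 0.002, 0.022 and -0.015 in control and -0.088, 0.049 and 0.024 in UV-B leaves. The lowest control library and the highest UV-B library were thus those in which the group's share of counts was nearest to that of the other treatment. What set these libraries apart was not tested.

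**Figure D5:**
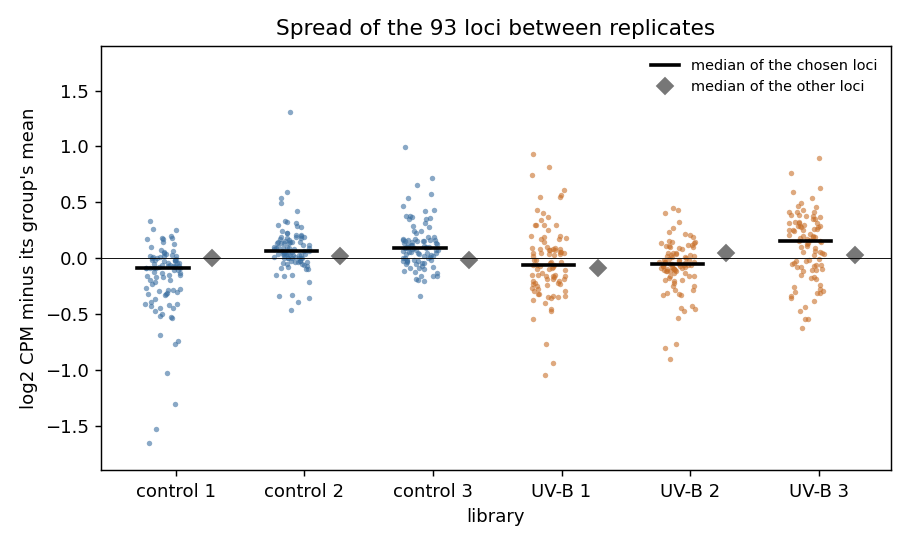
Log2 CPM of each of the 93 loci minus the mean of its group, by library, with the median of the 93 loci (black line) and of the 1621 other loci of at least 100 CPM (grey diamond). Control replicate 1 has a median of -0.09 and a tail of loci below it, and UV-B replicate 3 has a median of 0.15.

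The order of the replicates differed between the more and the less abundant loci. Among the 28 loci of at least 1000 CPM, UV-B replicate 3 was the highest UV-B library in 23, and UV-B replicate 1 the lowest in 16. Among the 65 loci below 1000 CPM, UV-B replicate 1 was highest in 24, replicate 2 in 13 and replicate 3 in 28. In control, replicate 2 was highest in 19 of the 28 abundant loci and replicate 3 in 36 of the 65 others. Control replicate 1 was lowest in 16 of the 28 and in 42 of the 65. The same counts were not made for other loci of like abundance, so whether this order is particular to the group was not tested.

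A minority of the loci was much lower in control replicate 1 than in the other control libraries. In 14 of the 93 (15.1%) its value was at most 66.7% of the lower of the other two, a limit set after the values were seen, against 1.73% of the other 1621 loci. Of these 14 loci, 4 had a mean of at least 1000 CPM. Their ratio of control to UV-B mean had a median of 5.77 and ranged from 3.29 to 30.1, whereas the remaining 79 loci had a median of 2.40. The rule and this limit together demand a larger ratio of the 14 than of the rest, so nothing is read from these medians. Over all 93 loci, the median ratio to the UV-B mean was 2.34 for control replicate 1 alone and 2.65 for the mean of control replicates 2 and 3.

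Loci whose identifier does not begin with Gb were about as frequent in the group as among highly expressed loci in general. There were 2 among the 93 (2.15%) and 46 among the 1714 (2.68%). The one of rank 35 had 573, 1640 and 1691 CPM in control and 264, 255 and 232 CPM in UV-B replicates 1, 2 and 3. The one of rank 82 had 149, 176 and 141 CPM in control and 93.6, 90.1 and 86.4 CPM in UV-B leaves. In the former the control libraries were spread widely and the UV-B libraries closely, and in the latter both groups were close.

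To see the level in a library that had no part in the choice, the 2 conditions were applied to 5 libraries at a time and the value of the library left out was then read. Without control replicate 1, 126 loci were chosen, and in 121 of them (96.0%) that library was above the highest UV-B value. The background for this count was 44.3%, the share of all loci of at least 100 CPM in which control replicate 1 was above the highest UV-B value. Control replicate 2 was above it in 94 of 94 loci chosen without it (background 45.6%), and control replicate 3 in 99 of 99 (background 41.5%). UV-B replicate 1 was below the lowest control value in 117 of 118 loci chosen without it (background 55%), UV-B replicate 2 in 109 of 110 (background 41.8%) and UV-B replicate 3 in 137 of 138 (background 39.7%).

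The left-out library also met the full gap of 1.5 times in most of these loci. It did so in 73.0% of the loci for control replicate 1, 91.5% for control replicate 2 and 83.8% for control replicate 3. For UV-B replicates 1, 2 and 3 the share was 87.3%, 91.8% and 74.6%. Control replicate 1 and UV-B replicate 3 thus met the gap least often. Over all loci of at least 100 CPM (1690 to 1732, by the library left out), the corresponding shares were 8.38% to 14.9%. These backgrounds, like those above, take in loci without a gap in the other 5 libraries. A higher share in the chosen loci was therefore largely to be expected. Libraries of 1 group shared their treatment and possibly their growth and preparation, so a left-out library is not an independent experiment. All 6 libraries entered the scaling with which it was read.

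In the fit over all 23641 loci (quasi-likelihood test of edgeR, threshold 0.05 on the p adjusted by Benjamini-Hochberg), all 93 loci were called lower in UV-B leaves. The background was 5.93% of all loci tested, and 12.1% of those of at least 100 CPM. Nothing is read from this count, since the rule used the same libraries and the same contrast. The fitted log2 fold changes ranged from -5.70 to -0.72 with a median of -1.36, beside a median of 0.003 over all loci tested and -0.07 over the other loci of at least 100 CPM. Their standard errors had a median of 0.19, against 0.13 for those others. A further 115 loci of at least 100 CPM were called lower without meeting the gap of 1.5 times.

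How far the group extended depended on the scaling of the libraries. With library size alone in place of TMM factors, which moved the median log2 fold change of all loci to 0.23, 56 of the 93 loci still met both conditions and no other locus did. The median log2 fold change of the 93 was then -1.15. Leaving the 93 loci out of the TMM computation hardly changed the scaling. The factors were then 0.90 to 0.95 in control and 1.05 to 1.15 in UV-B libraries, as they were with them. Both sets are expressed against totals that include the 93 loci. They therefore do not show how far these loci account for the difference in factors between the groups.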

How the data were processed

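RNA sequencing libraries of seedling leaves, 3 control and 3 UV-B treated, were compared, with groups taken from each title. What the authors deposited was raw counts of reads per locus, in 1 table of whole numbers without normalization. CASAVA 1.8, TopHat2 and HTSeq 0.9.1 are named, without roles, in the submitters' processing notes. For the genome build, annotation, strand setting and reads with several matches, the choice is not given in the sources used here. Counts of near-identical, overlapping or antisense genes are therefore uncertain. The table had 0 rows that name no gene.

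From the counts, using R 4.3.3 and edgeR 4.0.16, loci were filtered with filterByExpr by group, scaled by TMM, and expressed as CPM without a prior count. The fit was edgeR's quasi-likelihood test with group as the only term, two-sided, adjusted over all loci. The standard error is the size of the log2 fold change divided by the square root of F. DESeq2 1.42.0 and limma-voom (limma 3.58.1) served as alternatives, beside other scalings, limits and left-out libraries. The named loci are the one of highest mean CPM and the one of widest gap. The members and lists were chosen with earlier results of these data known. Lists of gene functions were not applied, because no names were used. Totals of 37528794 to 47559213 counts gave each of the 93 loci at least 93 reads per library. The intervals cover counting error of reads only. No molecular identifiers were counted, so copies of 1 molecule may be counted more than once, and the intervals may be too narrow even for that error.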

Additional observations from a re-analysis of the deposited data

How the results depend on the processing

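The number of loci meeting the rule was 93, and it was 93 with RLE factors (92 shared), 78 with upper-quartile factors, 92 with TMM factors computed without the members and 93 with no low-count filter. It was 56 with library size alone, where loci with the gap in the other direction numbered 21 in place of 12 (a count chosen after seeing the data). Looser or stricter limits by construction gave 168 at 50 CPM, 57 at 200 CPM, 224 at a gap of 1.2 times and 35 at a gap of 2 times. Leaving out 1 library gave 94 to 138, and 83 to 93 of the original loci were among them. In the fit over all loci, 93 members were below the threshold with each scaling and without the filter. Of all loci tested in these fits, 4.13% to 5.93% were called lower. DESeq2 and limma-voom also gave 93, beside 10.5% and 5.37% of all loci. At an adjusted p below 0.01, which is stricter, 37 members passed, for which no share over all loci is given. The 6 left-out fits gave 66 to 89, beside 2.15% to 4.86% of all loci. The replicate block gave 75 (edgeR, with fewer degrees of freedom), beside 2.88%. The members were chosen on the same contrast, so nothing is read from these counts. Deviations of libraries of the same number from their group means had correlations of 0.002, 0.13 and -0.05 across loci, and 2 of 6 libraries had the highest with their own number. The numbers were therefore not treated as pairing the libraries. The median log2 fold change of the members ranged from -1.45 to -1.31 with 1 library left out and was -1.15 with library size alone. Without the most abundant member the share of counts was 11.3% in control and 4.64% in UV-B leaves. Leaving out 1 library gave shares of 12.3% to 13.0% and of 4.90% to 5.25%. Both named loci kept their direction and an adjusted p below 0.05 in all 14 alternative fits. They were picked from the 93 on the same libraries and contrast, so this outcome largely follows from the choice. The alternative planned for gene lists was not run, because no names were used. At these depths the spread between replicates, not counting error, limits the members' values.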

Other observations

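Some members have identifiers whose numbers lie close together; what the numbering follows is not given in the sources used here. Among the 91 members with a Gb identifier, 5 (5.49%) have a number within 5 of another member's, and among the 1577 other Gb loci of at least 100 CPM, 33 (2.09%) have a number within 5 of a member's. The 5 form 2 runs. The first holds the loci of rank 1, 6 and 22, with control to UV-B ratios of 3.06, 6.16 and 10.9, so these members fell by different amounts. The second holds the loci of rank 49 and 57, with ratios of 5.53 and 3.03. Loci outside the group with close numbers did not all fall in this way. One within 5 of rank 1 had a higher mean in UV-B leaves, and one within 5 of rank 57 a slightly lower mean. Neither change had an adjusted p below 0.05. The distance of 5 was chosen after the identifiers were seen, and counts of near-identical copies are uncertain.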
